A study of Mus musculus with 12 samples.

Results

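The hippocampus of VP16-CREB mice was compared, late after induction of the transgene, with hippocampus in which the transgene had never been switched on. The late samples were 3 arrays, of VC mice (VP16-CREB transgenic) at 2 weeks off doxycycline (dox, arrays 1 and 2) and at 5 weeks off dox (1 array). The never-induced samples were also 3 arrays, of wild-type mice (arrays 1 and 2) and of VC mice kept on dox with the gene off (1 array). These 6 arrays were chosen by their titles from the 12 of the series, 9 of which held whole hippocampus and 3 microdissected CA1. Of the other hippocampal arrays, 2 were of VC mice at 1 week off dox, and the remaining one was of VC mice that expressed the transgene for 3 weeks and were then returned to dox for 2 weeks. The CA1 arrays were of VC mice 3 weeks after induction (2 arrays) and of wild-type mice (1 array).

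CREB is a transcription factor that binds cyclic AMP response elements (CREs) in gene promoters. It activates transcription once it is phosphorylated by kinases downstream of synaptic activity and cyclic AMP. VP16-CREB joins it to the activation domain of the herpes simplex virus protein VP16, which makes it active without that phosphorylation, and dox in the diet keeps the transgene silent. In the published mouse line the transgene is driven in forebrain neurons through a dox-regulated activator under the CaMKII alpha promoter; the labels used here do not name the promoter. In hippocampus CREB is known for its part in lasting synaptic potentiation and for target genes such as Fos, Bdnf and Pdyn. The stated purpose of the arrays was to find a gene whose induction goes along with easier late-phase potentiation in hippocampal slices.

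Each hippocampal RNA pooled 6 to 10 mice of 1 genotype and 1 time, so p-values here rest on the spread between pools, not between mice. In the never-induced group that spread also holds any difference of wild type from VC on dox. In the late group it holds any difference of 2 from 5 weeks. Age, sex and strain of the mice are not given in the labels. Levels below are log2 of the deposited intensity after each array was scaled to a trimmed mean of 1000. A level of 6.07 is the floor under which values were not distinguished, and a difference of 1 is a 2-fold change. Wild-type array 1 was deposited at a trimmed mean of 500.3 and the other 5 arrays at about 3002. Levels of tested probe sets correlated between arrays at 0.967 to 0.979 among the never-induced arrays, 0.945 to 0.965 among the late ones and 0.947 to 0.971 between the groups. Among markers of hippocampal neurons, 5 of 10 for dentate granule cells, 6 of 7 for CA1 pyramidal cells and 5 of 9 for CA3 and CA2 pyramidal cells were bright enough to be tested, as were 6 of 15 markers of other brain regions.

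RNA for prodynorphin (Pdyn), Creb1, Atf3 and Gadd45b was higher in late induced hippocampus, as was that for the interneuron genes Slc32a1 and Npy. The MHC genes H2-Ab1 and H2-K1, the interferon regulator Irf7, the microglial genes Cst7, Cd52, Cd68 and Cyba and the astrocyte gene Gfap were higher too. In each gene list that holds them, most tested members did not pass. Of 6585 tested probe sets, 25 were higher in the late arrays (0.38%) and 0 were lower (0%) at an adjusted p under 0.05 (limma with Benjamini-Hochberg adjustment). The differences of the 25 ran from 0.84 to 4.45 with a median of 1.42, where the median over all tested probe sets was -0.02. At an unadjusted p under 0.05 there were 432 probe sets, 255 of them higher and 177 lower. Of the 25, 20 had a single gene symbol, for 18 genes, 3 had several symbols and 2 had none. On all 25 every late array lay above every never-induced array, a pattern that 394 of the tested probe sets showed (5.98%), while 424 showed the opposite (6.44%). Of the 25, 9 exceeded the median of the array on late arrays alone and so entered the test through the late group; 95 tested probe sets entered that way and 76 only through never-induced arrays.

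The number of calls depended on which array was left out. Without wild-type array 1 it was 5, without wild-type array 2 it was 6, without the array on dox 4 and without the 2-week array 2 it was 6, against 20 without the 2-week array 1 and 18 without the 5-week array. Of the 25, 4 passed in all 6 of these fits: Pdyn (99840_at), Creb1, H2-Ab1 and 98472_at, a probe set without a single symbol. All 4 were among those that entered the test through the late group, and with no filter on level 3 of the 25 still passed. The other 21 lost the call in at least 1 of them, and each of these did so without the array on dox, where the count was lowest. Slc32a1, Npy, Gadd45b, Cyba, Rnh1 and 93067_f_at, a probe set without a single symbol, passed in 0 of the 6 fits. As folds of intensity, 24 of the 25 moved by at most 1.23 times when an array was left out. The exception was Cst7, which moved by up to 1.60 times.

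**Figure D1:**
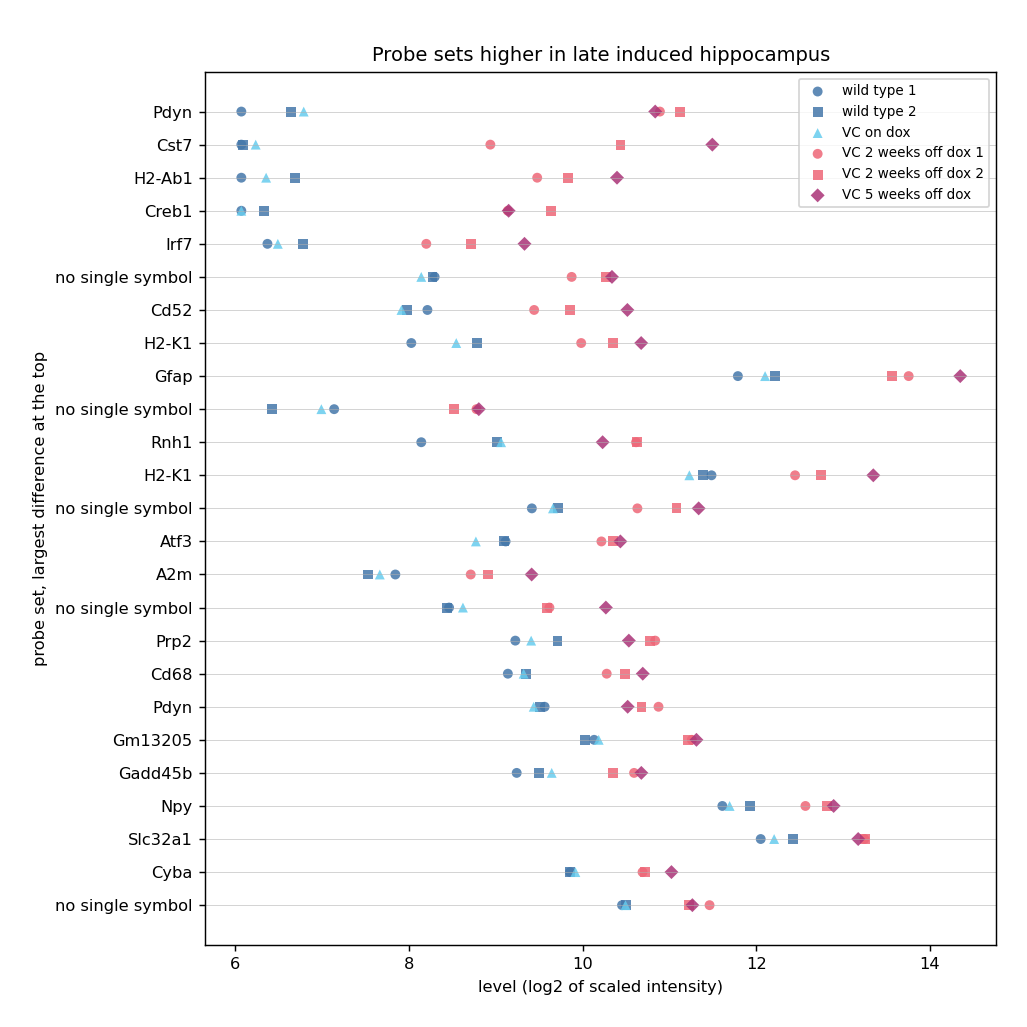
Level (log2 of scaled intensity, x axis) of the 25 probe sets that passed, 1 row each with the largest difference at the top. Points are single arrays, blue for never-induced (circle and square wild type 1 and 2, triangle VC on dox) and red or purple for late induced (circle and square 2 weeks, diamond 5 weeks); in every row all late points lie to the right of all never-induced points.

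**Figure D2:**
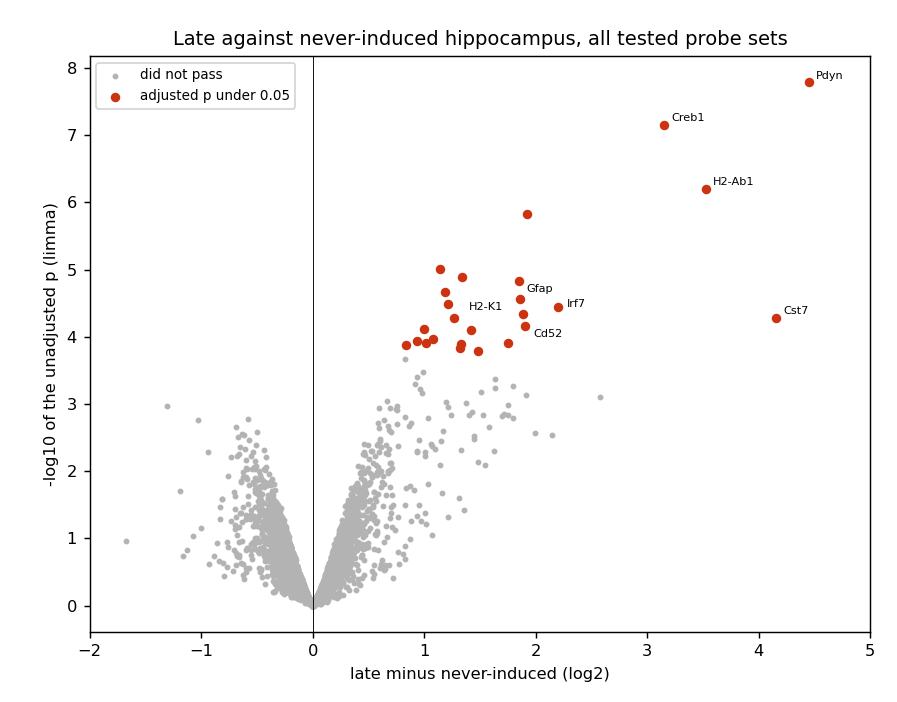
Difference, late minus never-induced (log2, x axis), against -log10 of the unadjusted limma p (y axis) for the 6585 tested probe sets. The 25 that passed are red and all lie on the right, and genes with a difference above 1.8 are named.

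Creb1, the gene from which the transgene was made, checks the labels. Its probe set 102672_g_at read 6.07 in wild type 1, 6.33 in wild type 2 and 6.07 on dox. In the late group it read 9.14 and 9.63 at 2 weeks and 9.15 at 5 weeks. The never-induced arrays were thus at or near the floor and the late arrays far above it, an increase of at least 8.88-fold (difference 3.15 ± 0.17 SE, adjusted p = 0.000231). Another Creb1 probe set, 102671_at, was brighter on the never-induced arrays and dimmer on the late ones. It read 7.65, 6.36 and 7.66 in wild type 1, wild type 2 and on dox, against 9.13, 9.15 and 8.47. It differed by 1.69 ± 0.36 SE and did not pass (adjusted p = 0.181), although its groups did not overlap. The third, 102673_at, was too dim to be tested, with 6.08, 7.53 and 6.16 in the late arrays and 6.07 to 7.19 in the others. RNA of the transgene and of the mouse's own Creb1 cannot be told apart in these values. Both probe sets of Crem, a close relative of Creb1, were under the filter. Of these, 100533_s_at lay at 7.63 to 8.23 in never-induced hippocampus and at 8.30 to 8.52 late. The other, 160526_s_at, read 7.01, 7.95 and 7.36 in wild type 1, on dox and in wild type 2 and 7.52, 7.61 and 7.95 late, so its groups overlapped.

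Prodynorphin (Pdyn) encodes the precursor of the dynorphins, opioid peptides that granule cells of the dentate gyrus use. Its probe set 99840_at read 6.07 in wild type 1, 6.65 in wild type 2 and 6.79 on dox. The late arrays read 10.89, 11.13 and 10.84. That made it the largest difference of all tested probe sets that passed, at least 21.8-fold (4.45 ± 0.20 SE, adjusted p = 0.000108), and the 5-week array was the lowest of the late arrays. The other Pdyn probe set, 161987_at, was 9.56, 9.51 and 9.44 in never-induced hippocampus and 10.87, 10.68 and 10.52 late. It rose by 1.19 ± 0.14 SE (adjusted p = 0.0175). The probe sets moved in the same direction by very different amounts on this scale.

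Promoters of the genes called higher were read from RefSeq (GRCm38.p6) to show where CRE letters lie. Of the 18 genes, 15 had at least 1 promoter there, from 250 bases before to 50 bases after the start. The full CRE, TGACGTCA, was in 0 of 15, against 3.64% of 4148 tested genes with a promoter and 1.79% of all 32851 promoters. Its shorter form TGACG, searched on both strands and contained in the full CRE, was in 6 of 15 (40%), namely Atf3, Cd68, Gm13205, H2-K1, Irf7 and Rnh1, against 37.2% of tested genes and 20.8% of all promoters. The interferon-type letters (GAAA, any 2 bases, then GAAA) were in 0 of 15 (3.33% of tested genes) and the STAT-type letters TTCNNNGAA in 2, Pdyn and Gfap (13.3% against 7.69%). The share with TGACG was therefore close to that of tested genes in general. The 150 bases before the start are shown for the most strongly changed gene and for 4 genes with a match, all on the minus strand, with TGACG or its complement CGTCA in capitals. They lie at chr2:129699939-129700088 (Pdyn), chr1:191183334-191183483 (Atf3), chr7:141266425-141266574 (Irf7), chr11:69666171-69666320 (Cd68) and chr17:34000348-34000497 (H2-K1).
Pdyn: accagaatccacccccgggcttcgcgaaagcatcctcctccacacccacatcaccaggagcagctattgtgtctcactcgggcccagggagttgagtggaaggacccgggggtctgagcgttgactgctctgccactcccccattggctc
Atf3: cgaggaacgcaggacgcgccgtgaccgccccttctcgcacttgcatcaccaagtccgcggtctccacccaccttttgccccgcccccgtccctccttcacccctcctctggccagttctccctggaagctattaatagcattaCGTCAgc
Irf7: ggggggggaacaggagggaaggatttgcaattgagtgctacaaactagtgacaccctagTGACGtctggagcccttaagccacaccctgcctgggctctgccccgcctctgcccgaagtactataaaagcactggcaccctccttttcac
Cd68: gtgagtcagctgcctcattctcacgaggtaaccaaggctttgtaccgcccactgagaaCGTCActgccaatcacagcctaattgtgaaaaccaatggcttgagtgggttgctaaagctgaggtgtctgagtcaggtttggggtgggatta
H2-K1: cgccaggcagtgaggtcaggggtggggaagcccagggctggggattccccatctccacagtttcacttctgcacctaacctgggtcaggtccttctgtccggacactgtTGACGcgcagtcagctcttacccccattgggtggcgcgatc
In Atf3 the match began 7 bases before the start, in H2-K1 41, in Irf7 91 and in Cd68 92 bases before it. The Pdyn stretch held no capitals.

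By 99840_at, Pdyn (4.45) moved more than the other activity-regulated genes named here. By its brighter probe set, 161987_at, Pdyn moved by 1.19, less than Fos (1.64) and Atf3 (1.34). Atf3, a stress-induced transcription factor of the CREB/ATF family, read 9.11, 9.09 and 8.77 in wild type 1, wild type 2 and on dox. It was 10.22, 10.35 and 10.43 in the late arrays, 2.53-fold higher (1.34 ± 0.14 SE, adjusted p = 0.0138). The late arrays lay close together and above all the others. Gadd45b, which acts in DNA demethylation and stress responses, rose from 9.24, 9.50 and 9.64 to 10.59, 10.35 and 10.68, or 2.11-fold (1.08 ± 0.15 SE, adjusted p = 0.0375). Gadd45b passed in 0 of the 6 fits that left out an array (lowest adjusted p there 0.0901, limma). The probe sets of Atf3 and Gadd45b carry the suffix _f_at, which marks sequence shared within a family, so related transcripts may add to them.

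Bdnf, a neurotrophin that strengthens synapses, came closest to the threshold without passing. It read 11.30, 11.26 and 11.40 in never-induced hippocampus and 12.17, 11.99 and 12.30 late, a difference of 0.83 ± 0.13 SE (adjusted p = 0.0544). The groups did not overlap. Fos, an immediate early transcription factor, was 9.91, 10.38 and 10.01 in never-induced hippocampus and 11.26, 11.49 and 12.46 late (1.64 ± 0.30 SE, adjusted p = 0.117), highest in the 5-week array. The other Fos probe set, 161716_at, was too dim to be tested. It lay at 7.19 to 7.60 in never-induced hippocampus and at 6.86 to 7.47 late, so its groups overlapped and did not rise. The other genes of the fixed set, Nr4a1 (0.23, adjusted p = 0.969), Sst (0.18, adjusted p = 0.890) and Penk (-0.20, adjusted p = 0.933), had overlapping groups. The sign of Nr4a1 turned without the 5-week array, at -0.10.

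Over the list of CREB targets and activity-regulated genes, 23 of 30 genes on the array were tested, by the brightest probe set of each. Of them 2 passed as higher (Pdyn and Gadd45b) and 0 as lower, and the median difference was 0.23. Late arrays lay above all never-induced arrays on 5 and below on 0 (5.98% and 6.44% of all tested probe sets). The median was 0.13 at 2 weeks and 0.61 at 5 weeks. Of 11 tested genes of the CREB family and its cofactors, 1 passed by its brightest probe set (Atf3), and the median was 0.16. Creb1 is in this list too and passed by its dimmer probe set, so 2 of the 12 probe sets tested for the list passed. Both medians lay above that of all tested probe sets, and most members did not pass. In neither list was a gene called lower.

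Among interneuron markers, 2 genes passed. Slc32a1, the transporter that loads GABA into synaptic vesicles, read 12.05, 12.42 and 12.20 in never-induced hippocampus and 13.24, 13.25 and 13.17 late. It rose 2.00-fold (1.00 ± 0.14 SE, adjusted p = 0.0310). Npy, a neuropeptide of interneurons, rose from 11.61, 11.93 and 11.69 to 12.56, 12.82 and 12.89, or 2.02-fold (1.01 ± 0.15 SE, adjusted p = 0.0375). Neither gene passed in any of the 6 fits that left out an array: their lowest adjusted p there was 0.0623 for Slc32a1 and 0.0506 for Npy. The other 9 of 11 tested interneuron markers did not pass, and the median of the list was 0.05. Sst, a peptide of another interneuron class, ranged from 13.29 to 13.45 in never-induced hippocampus and from 13.42 to 13.60 late. Among 15 tested neuropeptide genes, Pdyn and Npy passed and the median was 0.11. Neuropeptides and interneuron markers as lists therefore stayed near the median of all tested probe sets.

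MHC molecules present peptides to T cells, and in brain their main sources are microglia and, for class I, also other cells. H2-Ab1, the beta chain of the class II molecule I-A, read 6.07 in wild type 1, 6.69 in wild type 2 and 6.36 on dox. The late arrays read 9.48, 9.83 and 10.40, at least 11.5-fold higher (3.53 ± 0.25 SE, adjusted p = 0.00138). Of the 10 class II genes on the array 5 were tested, 2 of which entered the test through the late group alone. Of these 5, 1 passed, and late arrays lay above all never-induced arrays on 5 (5.98% of all tested probe sets), with a median of 0.76. Cd74, the invariant chain that escorts class II molecules, read 9.19, 9.16 and 8.88 against 9.56, 9.82 and 11.93 (1.36 ± 0.55 SE, adjusted p = 0.706). Without the 5-week array its difference was 0.61. H2-DMb1 (0.76, adjusted p = 0.203) and H2-DMa (0.46, adjusted p = 0.292), which load peptides onto class II, had late arrays above all others without passing.

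H2-K1, a class I heavy chain, was called by both of its tested probe sets. The brighter one, 93120_f_at, read 11.48, 11.39 and 11.23 in never-induced hippocampus and 12.45, 12.74 and 13.35 late, 2.79-fold higher (1.48 ± 0.22 SE, adjusted p = 0.0423). The other, 97125_f_at, rose from 8.03, 8.78 and 8.54 to 9.98, 10.35 and 10.67 (1.89 ± 0.24 SE, adjusted p = 0.0245). The 5-week array was the highest on both. Class I probe sets with this suffix do not separate H2-K1 from its close relatives. H2-D1 (1.51 ± 0.28 SE, adjusted p = 0.128) and H2-Q4 (1.91 ± 0.36 SE, adjusted p = 0.133) had groups that did not overlap but did not pass. Of 13 tested genes of MHC class I and antigen processing, 1 passed and the median was 0.91. Late arrays lay above all never-induced arrays on 7 and below on 0 (5.98% and 6.44% of all tested probe sets). Of the 13, 2 entered the test through the late group alone. Without the 5-week array the median was 0.54.

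Irf7, a transcription factor that drives the interferon response, read 6.37, 6.78 and 6.49 in never-induced hippocampus. It read 8.20, 8.71 and 9.33 late, 4.60-fold higher (2.20 ± 0.27 SE, adjusted p = 0.0215). The interferon list was counted by the brightest probe set of each gene. Limma called 0 of its 16 tested genes, and 5 were higher at an unadjusted p under 0.05. Late arrays lay above all never-induced arrays on 4 and below on 1 (5.98% and 6.44% of all tested probe sets). Of the 16, 3 entered the test through the late group alone. The called Irf7 probe set, 104669_at, was 1 of 18 tested for the list. The brighter Irf7 probe set lay at 9.01 to 9.04 in never-induced and 8.74 to 9.15 in late hippocampus, so its groups overlapped. Isg15, a ubiquitin-like interferon-induced protein, read 7.72, 7.41 and 6.17 against 8.85, 8.61 and 10.28 (2.15 ± 0.51 SE, adjusted p = 0.25). The list's median was 0.29, at 0.12 for 2 weeks and 0.71 for 5 weeks. Without the 5-week array it was 0.12.

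Microglia are the resident macrophages of the brain, and 4 of their tested markers passed. Cst7, which encodes the cysteine protease inhibitor cystatin F, was at 6.07, 6.09 and 6.24 in wild type 1, wild type 2 and on dox. It read 8.94, 10.44 and 11.49 in the late arrays, at least 17.9-fold higher (4.16 ± 0.54 SE, adjusted p = 0.0245). The late arrays spread over more than 2 units on this gene, with 5 weeks highest: its fold was at least 11.8 without the 5-week array and at least 28.5 without the 2-week array 1. Cd52, a small surface glycoprotein of leukocytes, rose 3.73-fold from 8.21, 7.98 and 7.91 to 9.44, 9.85 and 10.52 (1.90 ± 0.25 SE, adjusted p = 0.0305). Cd68, a lysosomal protein of phagocytes, rose 2.32-fold from 9.14, 9.35 and 9.32 to 10.28, 10.49 and 10.69 (1.22 ± 0.15 SE, adjusted p = 0.0215). Cyba, a subunit of the phagocyte NADPH oxidase, rose 1.91-fold from 9.85, 9.85 and 9.92 to 10.69, 10.72 and 11.02 (0.94 ± 0.13 SE, adjusted p = 0.0375). All 4 were highest in the 5-week array, and their groups did not overlap. Cyba passed in 0 of the 6 fits that left out an array (lowest adjusted p there 0.0623, limma).

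Of 26 tested microglia and macrophage markers, 4 passed as higher and 0 as lower, 20 lay above all never-induced arrays and 0 below (5.98% and 6.44% of all tested probe sets), and 24 had a positive difference. Of the 26, 4 entered the test through the late group alone. The median was 0.89, and 0.66 without the 5-week array. Summed over the 41 markers on the array, scaled intensity was 60755 to 70727 in never-induced and 88800 to 128989 in late hippocampus. Apoe, which astrocytes also express, made up 50.3% to 54.8% of the never-induced sums. Without it, a sum added after the values were seen, the other 40 markers gave 30178 to 32211 against 47944 to 87888. More microglia and more of these RNAs per cell cannot be told apart in bulk tissue. Markers that define microglia differed among themselves, as 3 genes singled out after their values were seen show. Csf1r, the receptor microglia need to survive, lay at 10.98 to 11.07 in never-induced hippocampus and at 11.47 to 11.87 late. Aif1, a calcium-binding protein used to stain them, lay at 6.79 to 7.81 and at 8.53 to 9.51. The groups overlapped on the chemokine receptor Cx3cr1, at 9.72 to 10.05 and 9.55 to 9.88. Of the 25 tested lysosome and phagocytosis genes, 2 passed (Cst7 and Cd68, which the microglia list holds too). Late arrays lay above all never-induced arrays on 15 and below on 0 (5.98% and 6.44% of all tested probe sets). Of these 25 genes, 2 entered the test through the late group alone. The median was 0.41. It was 0.25 without the 5-week array.

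Complement proteins tag cells and synapses for removal by microglia. C1qa, a chain of the first component, read 11.03, 11.41 and 11.55 against 12.41, 12.38 and 13.47 (1.43 ± 0.30 SE, adjusted p = 0.179). C1qc, another of its chains, read 11.39, 11.66 and 11.38 against 12.43, 12.36 and 13.28 (1.21 ± 0.24 SE, adjusted p = 0.164). Neither passed, though the groups did not overlap on either. The 6 tested complement genes had a median of 0.54, 0 were called by limma, and for 3 the unadjusted p was under 0.05. Without the 5-week array the median was 0.37. The chemokine Ccl9 read 7.17, 7.42 and 7.36 against 8.41, 8.76 and 10.05 (1.76 ± 0.37 SE, adjusted p = 0.179).

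Gfap, the intermediate filament of astrocytes that rises when they react to injury, was already bright in never-induced hippocampus, at 11.79, 12.21 and 12.10. It read 13.75, 13.56 and 14.35 late, 3.62-fold higher (1.86 ± 0.22 SE, adjusted p = 0.0202). It was the only 1 of 20 tested astrocyte markers to pass. Serpina3n, a protease inhibitor made by reactive astrocytes, read 11.64, 11.78 and 11.95 against 12.50, 12.24 and 12.73 (0.70 ± 0.16 SE, adjusted p = 0.235). The median of the list was 0.22, and 4 of its genes lay above all never-induced arrays (5.98% of all tested probe sets). Oligodendrocyte markers (9 tested, median -0.03) and endothelial and pericyte markers (10 tested, median 0.06) held 0 passing genes in limma, and 0 of either list had an unadjusted p under 0.05.

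The remaining named genes that passed fall in none of these lists. A2m, a protease inhibitor of plasma, rose from 7.84, 7.53 and 7.66 to 8.71, 8.91 and 9.41 (1.33 ± 0.20 SE, adjusted p = 0.0375). Rnh1, the cytosolic ribonuclease inhibitor, rose from 8.14, 9.01 and 9.06 to 10.61, 10.63 and 10.23 (1.75 ± 0.25 SE, adjusted p = 0.0375), with wild type 1 the lowest of the arrays. Rnh1 passed in 0 of the 6 fits that left out an array (lowest adjusted p there 0.0618, limma). Gm13205 (1.14 ± 0.12 SE, adjusted p = 0.0130) and Prp2 (1.27 ± 0.16 SE, adjusted p = 0.0245) completed the genes with a single symbol. Gm13205 had the smallest SE of the 25, with levels of 10.03 to 10.18 in never-induced and 11.21 to 11.31 in late hippocampus.

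**Figure D3:**
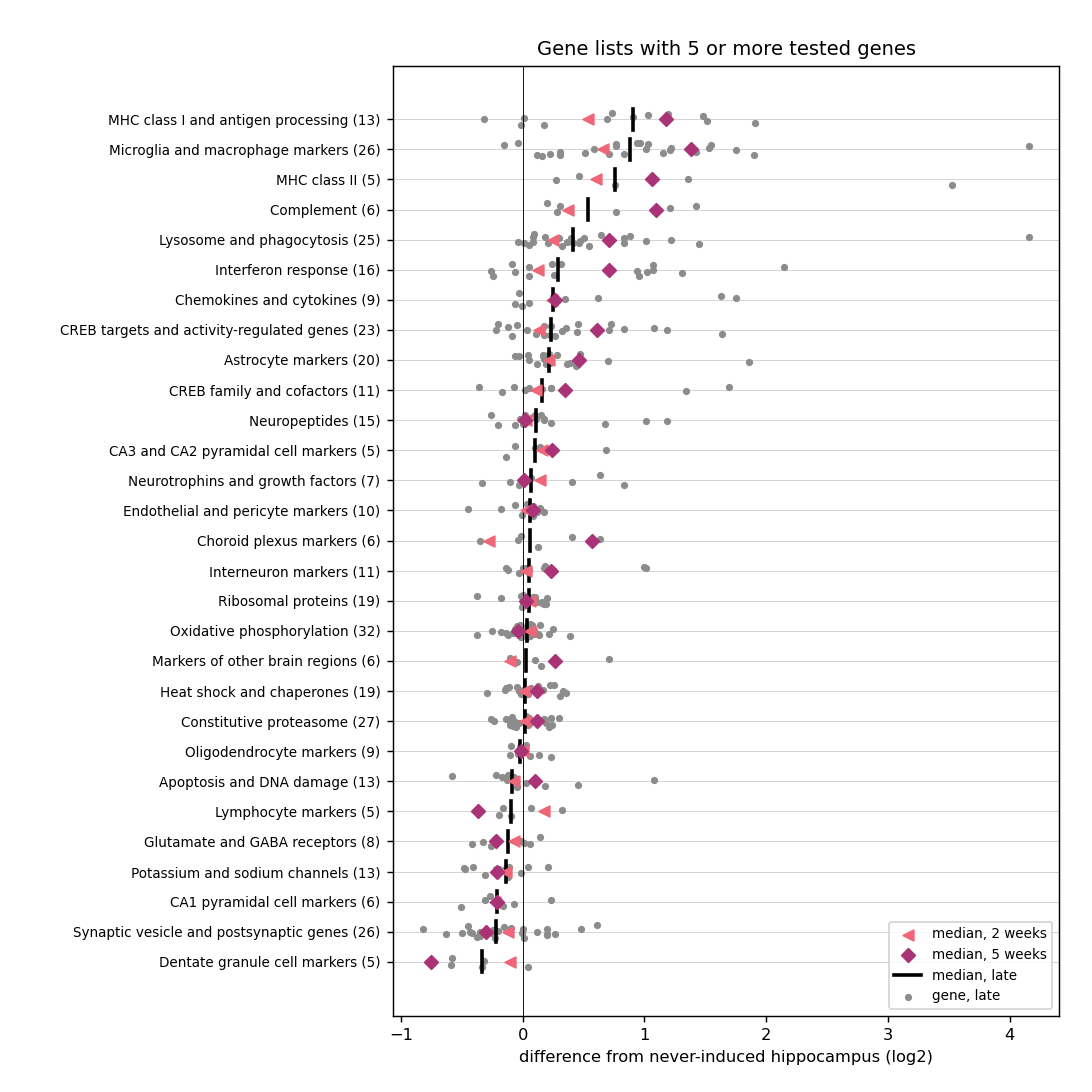
Difference from never-induced hippocampus (log2, x axis) for 29 gene lists with at least 5 tested genes, sorted by median, with the number of tested genes in brackets. Grey points are genes (late mean), the black bar is their median, the red triangle the median at 2 weeks and the purple diamond at 5 weeks; the MHC class I, microglia, MHC class II and complement lists have the highest medians (0.91, 0.89, 0.76 and 0.54) and dentate granule cell markers the lowest (-0.33).

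In the other direction 0 probe sets passed (limma); the lowest adjusted p was 0.164, and unadjusted p-values under 0.05 numbered 177. The smallest p belonged to H2-M10.1, an unusual class I gene, which had a mean of 9.83 ± 0.28 in never-induced and 8.53 ± 0.52 in late hippocampus (SD, n = 3 each; -1.30 ± 0.26 SE, adjusted p = 0.164). Apaf1, which builds the apoptosome, read 9.29, 9.01 and 9.19 against 8.58, 8.58 and 8.60 (-0.58 ± 0.13 SE, adjusted p = 0.187). Their groups did not overlap. Synaptic genes were among the next: Syn2, a synaptic vesicle phosphoprotein, read 11.91, 11.88 and 11.89 against 11.31, 11.44 and 11.44 (-0.50 ± 0.12 SE, adjusted p = 0.235). The AMPA receptor subunits Gria2 (92946_f_at, -0.64, adjusted p = 0.242) and Gria1 (92944_at, -0.61, adjusted p = 0.25) had a lower value on every late array. Their brighter probe sets differed by -0.33 for Gria2 and -0.26 for Gria1. With the values as deposited, the lower scale of wild type 1 moved the median of all tested probe sets to 0.84. There Apaf1 was at 0.28, Syn2 at 0.37, Gria2 at 0.23 and Gria1 at 0.25, so their signs turned while all 4 stayed under that median.

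Of 26 tested synaptic vesicle and postsynaptic genes, limma called 0, and 6 were lower at an unadjusted p under 0.05. In that list 7 genes lay below all never-induced arrays and 2 above, against 6.44% and 5.98% of all tested probe sets, and the median was -0.21. The median was -0.12 without the 5-week array and -0.33 without wild type 1. Potassium and sodium channels (13 tested, median -0.14) had 3 genes below all never-induced arrays (6.44% of all tested probe sets). Among them were Scn8a (-0.48, adjusted p = 0.431) and Kcnd2 (-0.48, adjusted p = 0.529). The 8 tested glutamate and GABA receptor genes had a median of -0.12, which was -0.07 without the 5-week array and -0.20 without wild type 1. Ribosomal proteins (0.05), oxidative phosphorylation (0.03), the constitutive proteasome (0.02) and heat shock genes (0.02) had medians near 0 and 0 passing genes in limma; over these lists 1 gene had an unadjusted p under 0.05.

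Markers of principal neurons and of neighbouring tissue were read beside these values. The 5 tested dentate granule cell markers had a median of -0.33, which was -0.10 at 2 weeks and -0.75 at 5 weeks. Calb1, a calcium buffer of granule cells, read 11.59, 11.32 and 11.44 against 11.23, 11.14 and 10.97 (-0.33, adjusted p = 0.709), and Dsp, a desmosomal protein of these cells, read 10.88, 10.68 and 10.69 against 10.62, 10.30 and 9.55 (-0.59, adjusted p = 0.756). Summed over the 10 markers on the array, scaled intensity was 7025 to 7637 in never-induced and 4492 to 6787 in late hippocampus. The 6 tested markers of CA1 pyramidal cells had a median of -0.21. Summed over the 7 on the array, intensity was 12794 to 16241 in never-induced and 10479 to 14122 in late hippocampus, so the groups overlapped. Of these 6, 1 lay below all never-induced arrays, Wfs1, which read 11.48, 11.53 and 11.62 against 10.90, 11.18 and 11.03 (-0.51, adjusted p = 0.292). The 5 tested markers of CA3 and CA2 pyramidal cells had a median of 0.10, and 1 of them, Prss23, lay above all never-induced arrays (0.68, adjusted p = 0.308). Prss23 entered the test through the late group alone. Of these 3 lists limma called 0 genes, and an unadjusted p under 0.05 was found for 2 dentate, 1 CA1 and 1 CA3 or CA2 marker. Of all tested probe sets, 5.98% lay above all never-induced arrays and 6.44% below. Fewer cells of a type and less RNA per cell cannot be told apart here either.

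Choroid plexus lies against the hippocampus, and its markers differed among themselves. Ttr, its most abundant secreted protein, read 11.35, 11.49 and 10.16 in never-induced hippocampus and 8.64, 12.15 and 12.58 late, so the groups overlapped and the first 2-week array was the lowest of all. Igfbp2 (0.64, adjusted p = 0.189, limma) and Igf2 (0.41, adjusted p = 0.610, limma) had late arrays above all never-induced arrays without passing. They were 2 of 6 tested choroid plexus markers (5.98% of all tested probe sets), of which 3 had a positive difference and 0 passed. Over the 12 choroid plexus markers the summed intensity was 6245 to 9293 against 7206 to 14161, and over the 11 blood markers 6514 to 8221 against 7223 to 12716. Lymphocyte markers summed to 26013 to 32174 against 23344 to 33000, of which Thy1, which neurons also express, made up 80.8% to 85.6%. Without Thy1, again a sum added later, they gave 4637 to 4821 against 4476 to 5179. Of the 21 lymphocyte markers on the array, 3 were at the floor on all 6 arrays, the T cell genes Cd8a, Cd8b1 and Cd2. The T cell genes Cd4 and Zap70 were not, at 8.86 to 9.24 and 9.95 to 10.23 in never-induced hippocampus. Late they lay at 8.11 to 9.45 and 10.00 to 10.34, so their groups overlapped. The part of choroid plexus, blood and dentate RNA in the results above was not tested.

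The late group joins 2 times, and these were compared in a fit over the 9 hippocampal arrays. The 25 probe sets had a median difference from never-induced hippocampus of 1.29 at 2 weeks and 1.74 at 5 weeks, and the 5-week array was the highest of the 6 on 18 of them. Between 5 and 2 weeks limma called 6 of 6585 tested probe sets (0.0911%), none of them among the 25, and 700 had an unadjusted p under 0.05. The 5-week level is 1 array and was assumed to vary like the others. The 7 on which the 5-week array was not the highest were both Pdyn probe sets, Creb1, Prp2, Slc32a1, Rnh1 and a probe set without a single symbol. Among the 18 with the highest value at 5 weeks were Cst7 (1.81 ± 0.48 SE from 2 to 5 weeks, adjusted p = 0.279), Cd52 (0.87 ± 0.23 SE, adjusted p = 0.268) and Gfap (0.69 ± 0.23 SE, adjusted p = 0.374). None of these passed.

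VC mice on dox carry the silent transgene, unlike wild type, and were counted as never induced. The titles name dox for VC mice alone, and the late mice were off dox. A difference by the silent transgene and one by dox therefore cannot be told apart here. On the 25 probe sets the array on dox was the highest of the never-induced arrays in 7, against 31.6% of all tested probe sets. For Pdyn (99840_at) it read 6.79, the highest of the 3, and for Creb1 (102672_g_at) 6.07, at the floor.

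Values at 1 week and after reversal use the same never-induced arrays and are given beside the late ones for the called probe sets. At 1 week the median difference of the 25 was 0.39. Pdyn (99840_at) had reached 8.93 and 9.70 by then and Creb1 8.31 and 8.50, whereas Cst7 was at the floor on both 1-week arrays and Gfap read 11.93 and 12.15. In the reversed sample the median was 0.12. Cst7 read 9.64 there, above the first 2-week array. Pdyn was back at the floor and Creb1 read 7.10. The reversed sample is labelled transgenic in its title and wild type in its description.

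The CA1 arrays share no sample with the hippocampal comparison and give a separate reading of the same genes. On all 25 probe sets both VC arrays of CA1 exceeded the wild-type CA1 array, against 29.2% of the 6585 tested probe sets, and 31.4% had both below. The median CA1 difference was 1.65 over the 25 and -0.02 over all tested probe sets. The single wild-type CA1 array allows no spread within that group. Cst7 read 6.07 in wild-type CA1 and 10.79 and 10.96 in the VC arrays, Cd52 read 7.02 against 11.26 and 11.26, and H2-Ab1 6.07 against 10.21 and 10.45. Pdyn (99840_at) read 7.82 against 10.92 and 10.97. Smaller differences were seen for Npy (0.64) and Irf7 (0.30), whose wild-type CA1 level of 8.67 lay above the 6.37 to 6.78 of never-induced hippocampus. Atf3 read 11.05 against 11.59 and 12.37. H2-M10.1, lower in late hippocampus without passing, went the other way in CA1, where the VC arrays were 1.78 above wild type.

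**Figure D4:**
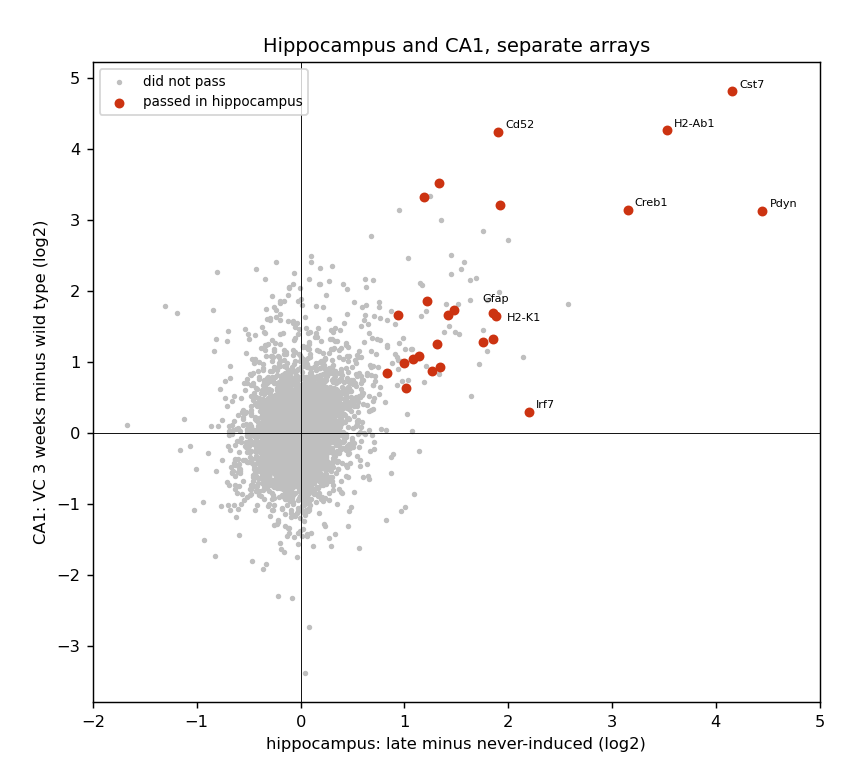
Difference in hippocampus, late minus never-induced (log2, x axis), against the difference in CA1, VC 3 weeks minus wild type (log2, y axis), for the tested probe sets. The axes share no array; the 25 that passed in hippocampus are red and all lie above 0 on the CA1 axis, from 0.30 (Irf7) to 4.81 (Cst7).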

How the data were processed

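Poly(A) RNA from pooled dissected hippocampi was hybridised to Affymetrix MG-U74Av2 arrays, per the labels. The deposited values are linear intensity per probe set, made with GCOS per the submitters' processing notes; no source used here gives its version, algorithm or scaling. Values were brought to a common 2% trimmed mean of 1000 per array, floored at the 20th percentile of the 9 hippocampal arrays (67.2) and log2 transformed. Of 12488 probe sets, 66 were controls; the 6585 of the other 12422 above the median of their own array on at least 2 of the 6 arrays were tested. The platform annotation gave 10833 of the 12422 a single symbol. The test was that of limma 3.58.1 (R 4.3.3; lmFit, then eBayes, late minus never, two-sided) with Benjamini-Hochberg adjustment over all tested probe sets; the script was tested on simulated data. SE is limma's. An exact permutation test of 3 against 3 arrays cannot go below p = 0.1. The number of arrays limits the precision.

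Gene lists use the brightest probe set per gene and are described by counts and medians. Genes were named by a rule: up to 20 largest changes per direction past the threshold, the 10 next smallest p in a direction with fewer than 20, Creb1, Crem, Pdyn, Bdnf, Fos, Nr4a1, Sst and Penk, and from each list every gene past the threshold and up to 4 by p. Members and lists were chosen with earlier results of these data known.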

Additional observations from a re-analysis of the deposited data

Results flagged for a closer look

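For Cd74, the invariant chain of MHC class II, limma called a difference between the 2 times joined in the late group: its level in the single 5-week array exceeded the 2-week mean by 2.24 on the log2 scale (± 0.21 SE, adjusted p = 0.00873, limma over the 9 hippocampal arrays). It read 9.56 and 9.82 at 2 weeks and 11.93 at 5 weeks, against 8.88 to 9.19 in never-induced hippocampus. The difference rests on that array, whose spread was not measured and was taken from the other groups. In CA1 at 3 weeks it read 10.78 and 11.24 in VC mice and 8.01 in wild type.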

How the results depend on the processing

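All 25 probe sets kept a positive difference, and late arrays above all never-induced arrays, in each setting that tested them. A filter on the mean left 19 of them. Settings that left out or added arrays, or changed the filter, levels, block or eBayes, used the same values. The separation of the 25 could not be lost there, so it is no test of them. With values as deposited, the lower scale of wild type 1 could only favour it. The count of 25 higher became 2 with values as deposited, 4 without a filter, 52 with 2 and 5 weeks as levels, 4 with wild-type controls alone, 5 with the deposited scale as a block, and 4 to 20 with 1 array left out. Lower calls were 3 without a filter and 2 with 2 and 5 weeks as levels. Probe sets with all late arrays above were 655 as deposited (0 below), 614 with wild-type controls alone (722 below), 656 with the scale block (833 below), and 579 to 821 with 1 array left out (688 to 855 below). Replicate numbers occur for wild type and 2 weeks alone. Same-numbered arrays deviated from their group means with a correlation of 0.015. With 2 arrays per group this is a single comparison, which cannot show whether such arrays share more than a number. These numbered arrays gave 3 higher calls both without and with the replicate block, with 1201 above and 1284 below in both. As deposited, where the median of all tested probe sets moved from -0.02 to 0.84, values still under that median turned sign for Apaf1 (0.28), Rbbp6 (0.18), Syn2 (0.37), Gria2 (0.23), Gria1 (0.25), Cxcl12 (0.19), Hnrnpa1 (0.29), Wfs1 (0.36), Napa (0.43), Cplx1 (0.51), Vamp1 (0.047), Atf6 (0.50), Calb1 (0.53), Dsp (0.27) and Penk (0.66). Nr4a1 ran from -0.10 to 0.55 with 1 array left out and was -0.17 on numbered arrays, with or without the block. Ttr ran from -0.60 to 1.37 with 1 array left out, -0.29 with wild-type controls alone and -1.02 on numbered arrays. Fewer arrays or more tested probe sets enter several of these settings; otherwise the cause was not tested. Folds of probe sets dim in never-induced hippocampus are bounds set by the floor.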
